A study of Mus musculus with 10 samples.

Results

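Mitochondria keep their own ribosome, the mitoribosome, which translates the few proteins encoded in mitochondrial DNA. All of its protein subunits are encoded in the nucleus, made in the cytosol and imported, and they assemble around mitochondrial ribosomal RNA into a large and a small subunit. Cumulus cells surround the oocyte and mural granulosa cells line the follicle wall. Both belong to the somatic compartment of the ovarian follicle, and cumulus cells pass metabolites such as pyruvate to the oocyte.

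The transcripts described here are the mitochondrial ribosomal protein genes, taken as every gene symbol in the expression table that begins with Mrpl or Mrps followed by a digit. The rule gave 76 of 23234 symbols, 47 Mrpl and 29 Mrps, with no use of measured values. All 76 had a mean of at least 1 FPKM (sequenced fragments scaled by transcript length and by library total), so all were tested. The name does not always give the place of the protein. Mrps18a and Mrps30 are found in the large subunit of the mammalian mitoribosome, and Mrps36 is now known as a component of the 2-oxoglutarate dehydrogenase complex of the citric acid cycle. By these assignments the 76 members comprised 30 large-subunit proteins of families shared with bacteria, 19 mitochondria-specific large-subunit proteins, 16 small-subunit proteins of bacterial families, 10 mitochondria-specific small-subunit proteins, and Mrps36.

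RNA-seq was available for 10 mouse libraries. Cumulus cells of C57BL/6 mice were sampled at 2 months (n = 3) and at 10 months (n = 3), and the same strain gave mural granulosa cells at 2 months (n = 2). Cumulus-oocyte complexes, which contain the oocyte with its cumulus cells, came from PMSG-primed mice aged 3 weeks, with 1 library of the BDF1 strain and 1 of DBA/2. The labels name no genetic alteration; they describe a culture medium with the phosphodiesterase inhibitor milrinone. Mural cells were from mice primed with eCG, and how the donors of cumulus cells were primed is not stated in the labels. PMSG and eCG are names for the same gonadotropin. Whether replicates are different animals is not stated either, so the spread that enters each p-value is that between libraries, which may be technical.

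The summed FPKM of a library ranged from 470377 to 603460, and read numbers are not stated in the labels or the table. The granulosa cell genes Foxl2, Fshr and Inha were present in all 10 libraries, with Inha at 2871 to 9833 FPKM. The summed level of 10 oocyte markers was 4.82 to 1064 FPKM in the 2-month cumulus libraries, 151 to 330 in the 10-month cumulus libraries, 18.5 to 137 in the mural libraries, and 2975 and 2774 in the BDF1 and DBA/2 complexes. Oocyte transcripts were therefore measurable in most of the libraries labelled as somatic cells, and highest among them in replicate 3 of the 2-month cumulus cells, while 5 of the 10 oocyte markers were listed at 0 in replicate 2. The summed level of 5 mural markers was 63.5 to 88.9 FPKM at 2 months, 86.4, 368 and 916 in replicates 1, 2 and 3 at 10 months, and 1866 and 3488 in mural cells. Replicate 3 at 10 months also had the highest summed level of the cumulus libraries for markers of theca and stroma (46.7 FPKM), endothelium (14.4), immune cells (66.0), erythroid cells (96.4) and surface epithelium (106), with no marker of these lists at 0. In these bulk samples fewer cells of a type and less RNA per cell cannot be told apart.

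Mitoribosomal protein transcripts were present at moderate levels in every library and kept much the same order from group to group. The median member stood at 44.9, 39.4 and 32.9 FPKM in replicates 1, 2 and 3 of the 2-month cumulus cells, at 38.1, 39.6 and 27.8 in those of the 10-month cumulus cells, at 28.3 and 32.4 in the mural cells, at 41.8 in the BDF1 complexes and at 34.8 in the DBA/2 complexes. Cumulus libraries of both ages overlapped, and both mural libraries lay below all 3 of the 2-month cumulus libraries. The 76 members together made up between 0.536% and 0.744% of all FPKM in a library, with the lowest share in replicate 3 of the 10-month cumulus cells and the highest in replicate 1 at 2 months. By this share the mural libraries (0.551% and 0.666%) overlapped with the 2-month cumulus libraries (0.582% to 0.744%).

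**Figure D1:**
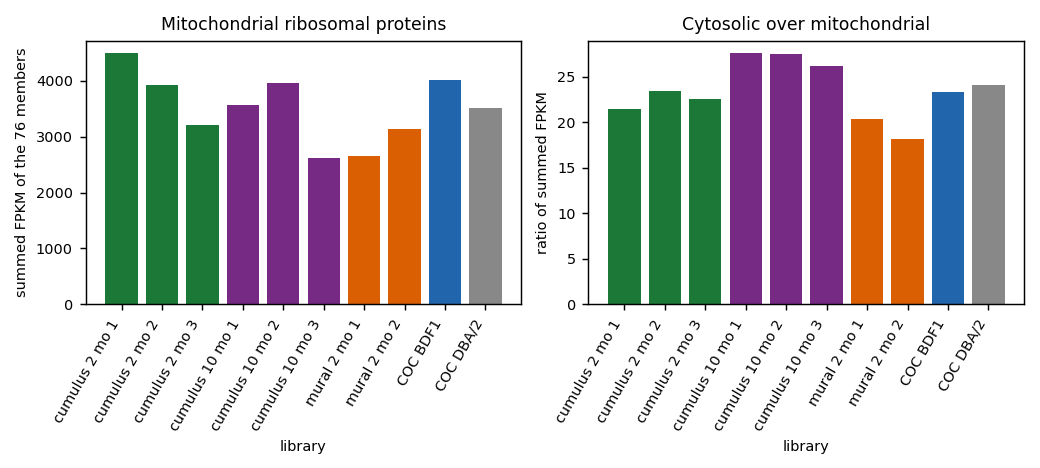
Left, summed FPKM of the 76 mitochondrial ribosomal protein genes in each of the 10 libraries; right, summed FPKM of 78 cytosolic ribosomal protein genes divided by that sum; each bar is 1 library, coloured by group. The mitoribosomal sums overlap between the ages (3213 to 4490.2 at 2 months and 2623 to 3962 at 10 months), and the ratio is highest in the 3 cumulus libraries of 10 months (26.2 to 27.6).

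Levels of single members, which FPKM scales by transcript length, spanned more than an order of magnitude. Mrps21, Mrpl33, Mrpl52, Mrpl12 and Mrpl42 had the highest means over the 8 C57BL/6 libraries. Mrps21, a small-subunit protein of a bacterial family, had 356, 291 and 200.1 FPKM in the 2-month cumulus libraries, 211, 262 and 167 in the 10-month ones, 234 and 271 in mural cells, 311 in BDF1 and 265 in DBA/2 complexes. Mrpl33 followed with group means of 248 ± 41.3 (SD, n = 3) at 2 months, 209 ± 47.9 (SD, n = 3) at 10 months and 181 ± 40.3 (SD, n = 2) in mural cells, and its libraries overlapped with those of Mrps21 at both ages but lay below them in mural cells. Within single C57BL/6 libraries Mrps21 was above Mrpl33, except in replicate 3 at 2 months (200.1 against 200.7 FPKM). Mrpl52 stood at 207 ± 61.6 FPKM (SD, n = 3) in 2-month cumulus cells. Its range overlapped with both, but within each of those libraries it lay below both. The next member, Mrpl12, averaged 121 ± 29.6 FPKM (SD, n = 3) there, and its highest library, at 152, lay just under the lowest of Mrpl52, at 153.

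At the other end, Mrpl35, Mrpl19, Mrpl17, Mrpl1 and Mrps25 had the lowest means. Mrpl35, a large-subunit protein of a bacterial family, had 8.64, 7.79 and 7.06 FPKM at 2 months, 5.21, 5.87 and 7.15 at 10 months, 5.21 and 5.53 in mural cells, 7.69 in BDF1 and 8.18 in DBA/2 complexes. Mrpl19, Mrpl17 and Mrpl1 averaged 7.55 ± 0.802, 8.28 ± 1.25 and 8.40 ± 1.44 FPKM (SD, n = 3) in 2-month cumulus cells, so these neighbours in the order did not differ beyond their spread. Mrps25 stood slightly above them at 10.9 ± 0.427 FPKM (SD, n = 3).

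The order of the 76 members by group mean was shared closely, with Spearman's rho of 0.987 between the 2 ages of cumulus cells, 0.962 between 2-month cumulus and mural cells, 0.904 and 0.873 between 2-month cumulus cells and the BDF1 and DBA/2 complexes, and 0.941 between the complexes. Between replicates of a group rho was 0.931 to 0.977. These correlations are across genes, which are not independent replicates, and describe a ranking set largely by the spread of levels between members.

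**Figure D2:**
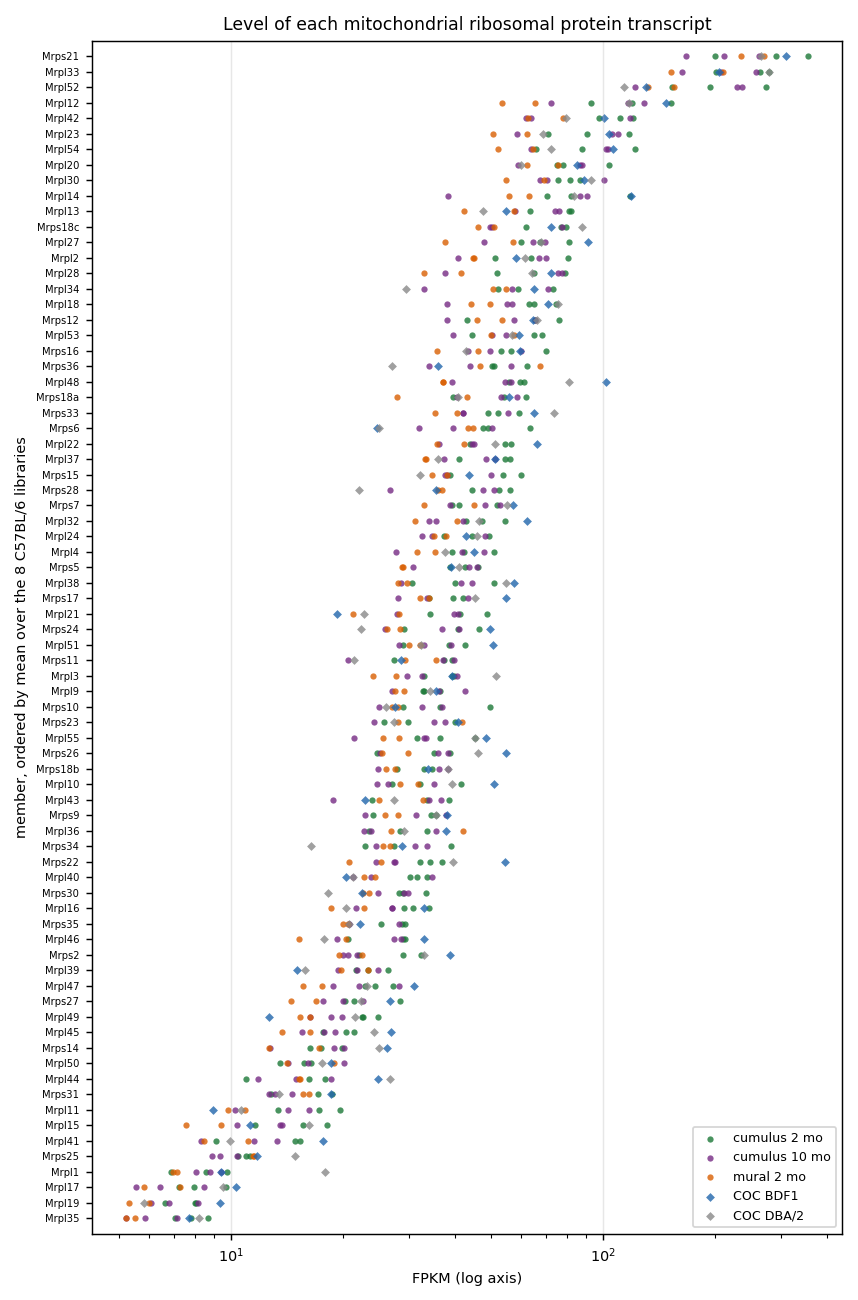
FPKM (log axis) of each of the 76 mitochondrial ribosomal protein transcripts, ordered by mean over the 8 C57BL/6 libraries, with 1 point per library coloured by group (circles, C57BL/6 cells; diamonds, complexes). Mrps21 (mean 249) stands at the top and Mrpl35 (6.56) at the bottom, and the groups overlap for most members.

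Members with well-described roles lay across this range. Mrps12, the counterpart of the bacterial protein of the decoding centre, stood at 76.1, 65.6 and 43.1 FPKM at 2 months, 57.6, 65.5 and 38.0 at 10 months, 45.7 and 53.6 in mural cells, and 64.9 and 66.2 in BDF1 and DBA/2 complexes. The 3 groups of C57BL/6 cells overlapped, and both complexes lay inside the range of their 8 libraries and above the mural ones. Mammals have 3 proteins related to bacterial S18, of which Mrps18c takes the S18 position, Mrps18b sits elsewhere in the small subunit and Mrps18a sits in the large subunit. Their 2-month cumulus means were 72.7 ± 9.33, 31.8 ± 3.47 and 51.7 ± 11.4 FPKM (SD, n = 3), so Mrps18b was the lowest of the 3 in each library of that group. Mrps30, also of the large subunit, had 30.2 ± 2.74 FPKM there. Mrpl44, which carries a fold related to RNase III, had 15.0 ± 3.58, Mrpl41 had 13.1 ± 3.44 and the small-subunit protein Mrps34 had 29.8 ± 8.25 FPKM (SD, n = 3 each).

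Mrps36, the member outside the mitoribosome, had 62.3, 50.3 and 50.8 FPKM at 2 months, 43.8, 56.6 and 33.9 at 10 months and 46.6 and 67.7 in mural cells, where the second library was the highest of all 10. The BDF1 complexes had 35.9 and the DBA/2 complexes 27.0 FPKM, the latter under every C57BL/6 library.

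Within the 8 C57BL/6 libraries, Mrpl14 spanned the widest range on the log2(FPKM + 1) scale (1.60), from 118 FPKM in replicate 1 of the 2-month cumulus cells to 38.2 in replicate 3 at 10 months. Mrpl12 (1.49), Mrpl28 (1.23) and Mrpl54 (1.21) came next, and all 3 were lowest in mural replicate 1. The narrowest ranges belonged to Mrps25 (0.34), Mrpl39 (0.43), Mrpl1 (0.45) and Mrpl19 (0.53), of which all but Mrpl39 are among the 5 members of lowest level, and a pseudocount of 1 narrows the range of low genes.

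**Figure D3:**
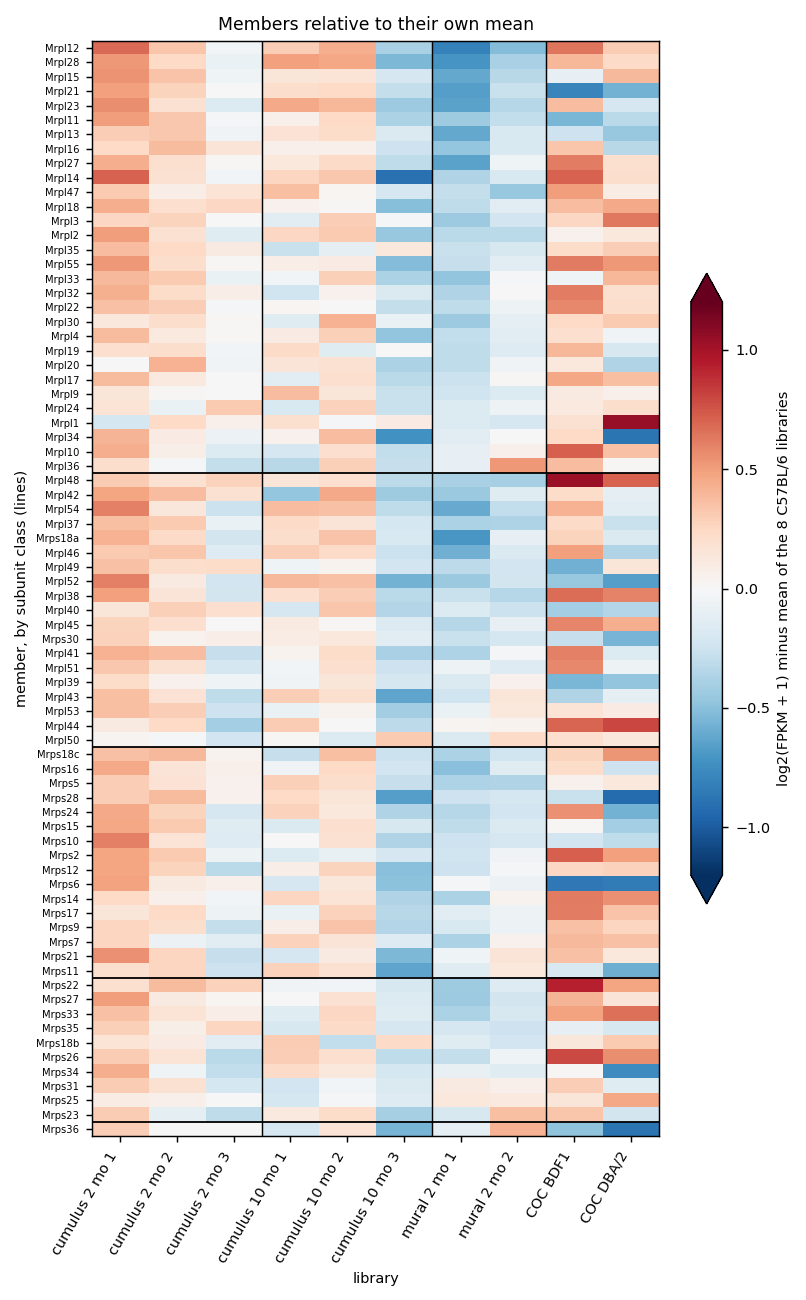
log2(FPKM + 1) of each member in each library minus the member's mean over the 8 C57BL/6 libraries (red higher, blue lower; horizontal lines separate subunit classes, vertical lines groups). Columns rather than classes stand out, with replicate 1 of the 2-month cumulus cells high and replicate 3 at 10 months and mural replicate 1 low across most members.

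Promoter sequences from RefSeq on GRCm38.p6, 250 bases before to 50 after each start, were matched to 67 of the 76 members by symbol, giving 73 windows on 16 chromosomes. Windows rather than genes were counted, so Mrpl2, Mrpl48 and Mrps16 entered more than once, and those of Mrpl2 and of Mrps16 overlap. Motifs of factors known as regulators of nuclear genes for mitochondrial proteins were searched on both strands. The NRF1 motif GCGCANGCG was present in 15 of 73 windows (20.5%), against 13.3% of the windows of all genes tested and 6.25% of all windows in the table. The ETS motif CCGGAAG, bound by GABP among others, was present in 24 (32.9%, against 17.3% and 8.86%). The YY1 motif AAGATGGCG was present in 8 (11.0%, against 2.99% and 1.4%), and the SP1 motif GGGCGG in 38 (52.1%, against 63.1% and 35.7%). Matches of different or the same motif may overlap, and a match is a description of these letters, not a binding site. Of the matched members, 13 had none of the 4 motifs.

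The windows of 4 members are shown 5′ to 3′ on the strand of the gene, with motif matches on either strand in capitals. Mrpl12 (chr11:120484387-120484686, + strand) is shown because it fell furthest in mural cells, and its capitals mark an NRF1 motif. Mrps22 (chr9:98601630-98601929, - strand) is shown because it had the smallest p in both comparisons, with an SP1 motif followed by an ETS motif. Mrps11 (chr7:78782881-78783180, + strand) is shown because its window overlaps that of another member, with a YY1 motif followed by an SP1 motif. Mrps36 (chr13:100744610-100744909, - strand) is shown as the member outside the mitoribosome, with SP1 motifs only, of which the first pair share a base.
Mrpl12: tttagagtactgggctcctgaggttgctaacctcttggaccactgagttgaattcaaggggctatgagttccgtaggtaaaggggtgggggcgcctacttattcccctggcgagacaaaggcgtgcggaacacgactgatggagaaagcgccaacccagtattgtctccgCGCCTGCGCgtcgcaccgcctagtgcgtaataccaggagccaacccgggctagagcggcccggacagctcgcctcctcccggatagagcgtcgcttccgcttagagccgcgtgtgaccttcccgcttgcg
Mrps22: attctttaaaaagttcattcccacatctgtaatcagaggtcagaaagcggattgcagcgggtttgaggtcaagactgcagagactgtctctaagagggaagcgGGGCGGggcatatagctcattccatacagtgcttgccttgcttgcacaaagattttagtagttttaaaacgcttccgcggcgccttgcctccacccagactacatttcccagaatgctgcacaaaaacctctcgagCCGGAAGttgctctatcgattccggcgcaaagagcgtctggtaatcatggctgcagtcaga
Mrps11: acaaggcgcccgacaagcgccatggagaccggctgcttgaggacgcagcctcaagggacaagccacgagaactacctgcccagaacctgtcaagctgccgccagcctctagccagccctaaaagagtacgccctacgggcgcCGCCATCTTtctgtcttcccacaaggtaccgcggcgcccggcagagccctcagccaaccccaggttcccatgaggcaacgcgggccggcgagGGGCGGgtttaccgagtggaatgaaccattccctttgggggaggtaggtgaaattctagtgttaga
Mrps36: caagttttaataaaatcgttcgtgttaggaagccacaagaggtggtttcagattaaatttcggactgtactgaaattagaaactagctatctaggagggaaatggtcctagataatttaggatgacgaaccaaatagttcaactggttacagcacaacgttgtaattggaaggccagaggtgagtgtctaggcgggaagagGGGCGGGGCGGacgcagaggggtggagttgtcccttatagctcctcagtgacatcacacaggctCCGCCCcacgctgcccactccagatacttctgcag

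Many members share their promoter region with a neighbour transcribed the other way. A divergent start within 500 bases was found for 23 of the 67 matched members (34.3%), against 1670 of 8675 matched genes tested (19.3%). Mrps11 and Mrpl46, a small- and a large-subunit gene, start 42 bases apart on chromosome 7 and are both members. Mrps12 starts 147 bases from Sars2, which encodes the mitochondrial seryl-tRNA synthetase, and Mrpl43 starts 116 bases from Twnk, which encodes the mitochondrial DNA helicase. Sharing a start region did not mean equal levels, since Mrps12 averaged 61.6 ± 16.8 FPKM in 2-month cumulus cells and Sars2 10.3 ± 1.63 (SD, n = 3 each). Mrps11 and Mrpl46 were close at 34.7 ± 6.41 and 26.3 ± 4.91 FPKM (SD, n = 3) in 2-month cumulus cells, while mural cells had 32.5 ± 4.41 of Mrps11 and 17.8 ± 3.65 of Mrpl46 (SD, n = 2). Without a stated strand setting, reads from overlapping transcripts of such pairs cannot be told apart.

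The first comparison asked how cumulus cells differ between 2 and 10 months of age. No mitoribosomal protein transcript passed the test with age. Members leaned lower at 10 months. Their median log2 fold change was -0.19 against -0.02 for all 12412 genes tested, and 67 of 76 (88.2%) were below 0 against 53.4% of all genes. The size of this lean varied with the libraries used. Without replicate 3 at 10 months, which held the markers of other cell types described above, the median was -0.03 with 45 members below 0, and without replicate 1 at 2 months it was -0.08 with 56 below 0. It was -0.29 without replicate 3 at 2 months, with 73 members below 0, and -0.29 without replicate 2 at 10 months, with 71. With replicate 3 of both ages left out, an alternative chosen after seeing the data, it was -0.15 with 64 below 0. The part of these cells in the lean was not tested.

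In limma's test of 10-month against 2-month cumulus cells, 0 of 12412 genes (0%) had an adjusted p under 0.05, at any direction of change. Unadjusted p was under 0.05 for 5 members (6.58%) and for 1727 genes in all (13.9%), so members were not more often below that level than other genes. The 2 ages did not overlap, with 10 months lower, for 7 members (9.21%), against a background of 8.88%, and for 0 members with 10 months higher, against 8.93%. The 7 were Mrpl16, Mrpl18, Mrpl32, Mrpl49, Mrps2, Mrps22 and Mrps25.

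The smallest p belonged to Mrps22, a mitochondria-specific small-subunit protein. It had 32.2, 36.9 and 34.2 FPKM at 2 months and 27.4, 27.5 and 24.4 at 10 months, with a log2 fold change of -0.37 (SE 0.125, limma adjusted p = 0.279). Each 10-month library was below each 2-month library, yet the difference did not pass over all genes. Mrpl49, a mitochondria-specific protein of the large subunit, had 24.8, 22.5 and 22.6 FPKM at 2 months and 18.5, 19.9 and 16.3 at 10 months (log2 fold change -0.34, SE 0.120, limma adjusted p = 0.290). Mrpl18, the counterpart of a bacterial protein of the 5S RNA region, had 74.5, 63.1 and 65.2 against 56.8, 55.1 and 38.1 FPKM (log2 fold change -0.45, SE 0.174, limma adjusted p = 0.319). For both, the ages did not overlap, and the 10-month library farthest from 2 months was replicate 3. Mrps2 and Mrpl32 had log2 fold changes of -0.39 and -0.36 without overlap (limma adjusted p = 0.336 and 0.358). Mrpl35 had a log2 fold change of -0.32, and its replicate 3 at 10 months, at 7.15 FPKM, lay inside the 2-month range (limma adjusted p = 0.393).

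No subunit class stood out with age. Median log2 fold changes were -0.20 for large-subunit proteins of bacterial families, -0.12 for mitochondria-specific large-subunit proteins, -0.21 for small-subunit proteins of bacterial families and -0.19 for mitochondria-specific small-subunit proteins. Of the last class, 4 of 10 members were above 0, namely Mrps18b, Mrps23, Mrps26 and Mrps34, the highest of them Mrps18b at 0.04.

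Cytosolic ribosomal proteins gave a different picture. Of these 78 genes 0 passed limma's test, with 0 under an unadjusted p of 0.05, and their median log2 fold change was 0.05 with 62 above 0. The ratio of summed cytosolic to summed mitoribosomal FPKM was 21.4, 23.5 and 22.6 in the 2-month libraries and 27.6, 27.5 and 26.2 in the 10-month libraries, a mean of 22.5 ± 1.02 against 27.1 ± 0.787 (SD, n = 3 each). These ratios did not overlap. When the medians of the 2 families were compared instead, the log2 difference was 4.78, 4.96 and 4.82 at 2 months and 5.03, 5.15 and 4.95 at 10 months, and the ages overlapped, so the separation was seen in the sums and not in the medians. Cytosolic ribosomal protein genes have many near-identical copies, and their FPKM values are uncertain for that reason.

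The second comparison asked how mural granulosa cells differ from cumulus cells at 2 months. Mitoribosomal protein transcripts were lower in mural cells across most of the family. The median log2 fold change was -0.42 against -0.08 for all genes tested, 70 of 76 members (92.1%) were below 0 against 55.7% of all genes, and the 2 groups did not overlap, with mural cells lower, for 46 members (60.5%), against a background of 32%. Only Mrps25 lay higher in both mural libraries than in all cumulus libraries (1.32%, against 25.6%). In limma's test 6 members (7.89%) fell, against 11.2% of all genes, and 0 rose, against 9.69% of all genes; the share that fell is thus no higher than the background. Limma's unadjusted p was under 0.05 for 25 members (32.9%), all of them lower, against 36.8% of all genes in either direction. Of the 12412 genes tested, 2539 were lower and 2024 higher at that level. All genes split into 1203 higher and 1396 lower, or 1700 higher and 957 lower after libraries were rescaled to 1 sum without Mir and Snor genes, which moved the median of all genes from -0.08 to 0.11.

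The members' median stayed below that of all genes under each scaling, at -0.21 with that rescaling, -0.28 with quantile normalisation and -0.36 with median centring, with 57, 63 and 69 members below 0. The number of members past the test did not hold, being 3, 2 and 0 under these scalings, and it was 0 when either mural library or replicate 2 of the 2-month cumulus cells was left out and 1 without replicate 1. Markers of theca and stroma (summed 99.7 and 160 FPKM in mural cells, 5.10 to 6.34 in 2-month cumulus cells) and of endothelium (17.1 and 43.3, against 1.60 to 4.76), immune cells (18.1 and 40.3, against 3.51 to 5.51) and erythroid cells (104 and 47.6, against 13.3 to 18.3) moved with the same comparison. Except for 1 erythroid marker in mural replicate 1, none of these markers was at 0 in mural cells, and their part in the result was not tested.

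**Figure D4:**
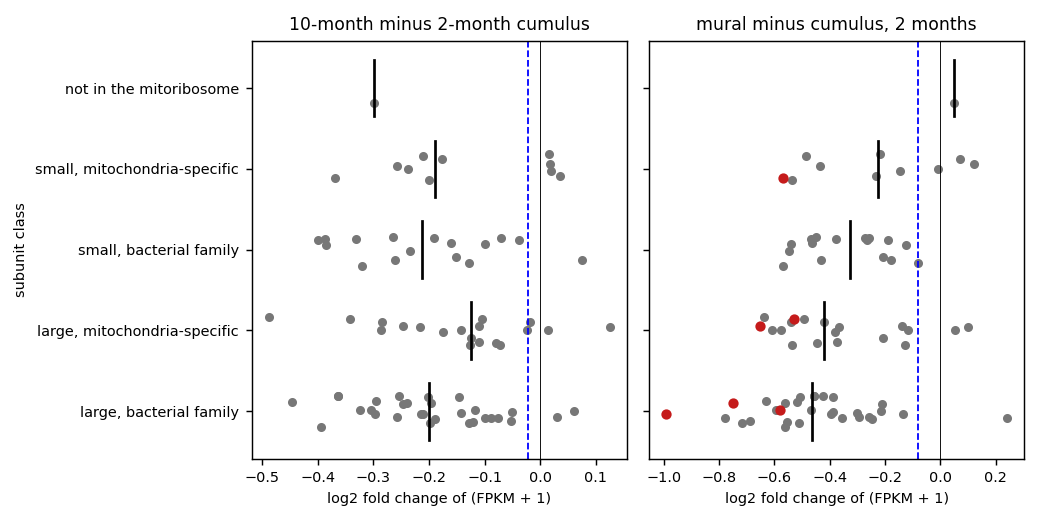
log2 fold change of (FPKM + 1) of each member by subunit class, for 10-month against 2-month cumulus cells (left) and mural against 2-month cumulus cells (right); red points passed limma's test over all genes, black bars are class medians and the dashed line is the median of all genes tested (-0.02 and -0.08). The 6 members that passed are all in the mural comparison and all lower, and most grey points also lie left of the dashed line.

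Mrpl12, which forms the stalk of the large subunit that contacts translation factors and also binds the mitochondrial RNA polymerase, fell furthest. It had 152, 119.5 and 92.6 FPKM in cumulus cells and 53.5 and 65.7 in mural cells, with a log2 fold change of -0.99 (SE 0.292, limma adjusted p = 0.0483). All 3 cumulus libraries were above both mural libraries, and so were those of 10 months, at 117, 128 and 72.2 FPKM. Its distance from the median member, on the log2 scale, was 1.47 to 1.74 in 2-month cumulus cells and 0.90 and 1.00 in mural cells, so it was lower relative to its own family as well.

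Mrps22 had 32.2, 36.9 and 34.2 FPKM in cumulus cells and 20.7 and 25.2 in mural cells (log2 fold change -0.57, SE 0.140, limma adjusted p = 0.0275). Mrpl49 had 24.8, 22.5 and 22.6 against 15.3 and 16.3 FPKM (log2 fold change -0.53, SE 0.134, limma adjusted p = 0.0299). Both comparisons use the same 2-month libraries, in which these 2 members were above the 10-month libraries too. Mrpl48 had 61.1, 55.9 and 59.6 against 37.2 and 37.0 FPKM (log2 fold change -0.65, SE 0.172, limma adjusted p = 0.0344), with little spread in either group. The annotation at hand lists 1 pseudogene named for Mrpl48 and 3 named for Mrps36, so their levels are less certain.

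The remaining 2 that fell are large-subunit proteins of bacterial families. Mrpl16 had 30.9, 34.0 and 29.1 FPKM in cumulus cells and 18.6 and 22.8 in mural cells (log2 fold change -0.58, SE 0.160, limma adjusted p = 0.0395). Mrpl15 had 18.0, 15.6 and 11.6 against 7.55 and 9.39 FPKM (log2 fold change -0.75, SE 0.216, limma adjusted p = 0.0450). Replicate 3 of the cumulus cells was the lowest of its group for both and still above the mural libraries. Of the 6, Mrpl12, Mrpl48 and Mrpl15 kept their call after the rescaling and only Mrpl12 and Mrpl48 after quantile normalisation.

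By class, the median log2 fold change in mural cells was -0.46 for large-subunit proteins of bacterial families (3 of 30 fell) and -0.42 for mitochondria-specific large-subunit proteins (2 of 19). It was -0.32 for small-subunit proteins of bacterial families (0 of 16) and -0.23 for mitochondria-specific small-subunit proteins (1 of 10). Of the 16, 3 were lower at an unadjusted p under 0.05 in limma, a level that 36.8% of all genes reached in either direction. The difference between subunits was not tested. Mrps36, outside the mitoribosome, had a log2 fold change of 0.05. Besides it, the members above 0 were Mrpl36 (0.24), Mrps23, Mrpl50, Mrps25 and Mrpl44. Mrpl44 had 16.2, 17.8 and 11.0 FPKM in cumulus cells and 15.2 and 15.3 in mural cells, and Mrpl36 had 33.6, 28.5 and 23.5 against 26.9 and 42.0, so the groups overlapped for both. Relative to the median member of each library, Mrpl44 stood at -1.50 to -1.10 in cumulus cells and at -0.85 and -1.03 in mural cells on the log2 scale, without overlap. This is not particular to Mrpl44, since many members separated on this scale, such as Mrps23 (higher in mural cells) and Mrpl15 (lower). Mrps22 and Mrpl16, which passed the test, overlapped on it.

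Other genes of mitochondrial translation were read beside the members. Their counts stand against 11.2% of all genes that fell and 36.8% with an unadjusted p under 0.05 in limma in either direction. The 7 mitoribosomal proteins with other symbols had a median log2 fold change of -0.45 in mural cells with 0 past limma's test and 3 at an unadjusted p under 0.05; of these Chchd1, a small-subunit protein, had 78.97 ± 9.59 FPKM (SD, n = 3) in cumulus and 48.2 ± 3.28 (SD, n = 2) in mural cells (limma adjusted p = 0.0518). Of 15 mitochondrial translation factors 0 passed limma's test and 1 had an unadjusted p under 0.05, and their median was -0.04, near that of all genes. Tufm, the elongation factor that brings tRNA to the mitoribosome, had 63.3 ± 5.48 FPKM in cumulus and 45.8 ± 1.10 in mural cells (limma adjusted p = 0.113). Of 22 assembly factors 1 fell, C1qbp, a multifunctional matrix protein linked to mitochondrial translation, from 136 ± 25.4 FPKM (SD, n = 3) to 78.2 ± 3.66 (SD, n = 2), with a limma adjusted p of 0.0389.

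Among 21 tRNA synthetases and related enzymes of mitochondria 2 fell, against 11.2% of all genes. They were Yars2 (log2 fold change -0.50, limma adjusted p = 0.0387) and Kars (-0.77, limma adjusted p = 0.0236), the latter an enzyme that serves the cytosol as well. Yars2 lost its call under many alternative settings of the analysis, and Kars kept its call under most. Among 16 genes of mitochondrial RNA and DNA maintenance 2 fell, close to the 11.2% of all genes. Of the 16, 13 were below 0 and 3 above, namely Top1mt (0.38), Mterf (0.37) and Pnpt1 (0.29). Elac2, which cuts the 3′ end of the precursor, had 18.8, 17.8 and 18.7 FPKM in cumulus and 10.2 and 8.95 in mural cells (log2 fold change -0.88, limma adjusted p = 0.00745). Hsd17b10, a dehydrogenase that is also a subunit of mitochondrial RNase P, had 203, 155 and 161 against 86.0 and 81.3 FPKM (log2 fold change -1.03, limma adjusted p = 0.0303). Neither list had a gene that passed limma's test as higher.

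Of 12 genes for known upstream regulators of mitochondrial gene programmes, 10 were tested, 5 fell in mural cells (against 11.2% of all genes) and 0 rose (against 9.69%). Pprc1, a growth-related coactivator of the PGC-1 family, had 22.4, 22.1 and 25.5 FPKM in cumulus and 10.4 and 8.21 in mural cells (log2 fold change -1.25, SE 0.173, limma adjusted p = 0.00593). Mycn, a Myc-family transcription factor, had 57.5, 35.5 and 28.1 against 12.4 and 8.69 FPKM (log2 fold change -1.80, SE 0.337, limma adjusted p = 0.0121). Both were more than 2-fold lower by group mean in libraries that did not overlap. Gabpb1, a subunit of the ETS factor GABP, had 22.7 ± 0.956 against 12.7 ± 0.0611 FPKM (limma adjusted p = 0.0163), while its DNA-binding partner Gabpa had 14.4 ± 2.29 against 13.6 ± 1.79 (limma adjusted p = 0.796). Hcfc1 (log2 fold change -0.56, limma adjusted p = 0.0402) and Nrf1 (-0.62, limma adjusted p = 0.0471) fell too. Hcfc1 lost its call under many of the alternative settings, while Pprc1 and Mycn kept theirs under nearly all. Yy1 had 31.8 ± 5.09 FPKM (SD, n = 3) in cumulus and 28.3 ± 4.58 (SD, n = 2) in mural cells, which overlapped. Ppargc1a and Ppargc1b were at most 0.260 and 1.06 FPKM in any library and were not tested.

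With age, limma called 0 genes of these lists, and 3 of their genes had an unadjusted p under 0.05, against 13.9% of all genes. Myc had 12.2, 18.2 and 15.5 FPKM at 2 months and 72.7, 36.3 and 61.9 at 10 months without overlap (log2 fold change 1.79, SE 0.267, limma adjusted p = 0.152), and 12.2 to 18.2 in all other libraries. Translation factors had a median of -0.20, close to that of the members, with 14 of 15 below 0 against 53.4% of all genes. The list of tRNA synthetases was alike, at -0.21 with 17 of 21 below 0. The 7 other mitoribosomal proteins had a median of -0.13 and were all below 0. Medians of the assembly factors, the RNA and DNA maintenance genes and the upstream regulators were -0.12, -0.09 and -0.05.

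Cytosolic ribosomal proteins were lower in mural cells than in cumulus cells by more than the mitoribosomal members. Their median on the log2 scale was -0.65, with 16 of 78 past limma's test, all lower, against 11.2% of all genes. The ratio of their summed FPKM to that of the members was accordingly 20.4 and 18.1 in mural cells, under the 21.4 to 23.5 of cumulus cells at 2 months.

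The complexes were compared by fold only, since each strain had 1 library, and a member was counted when it differed by at least 1.5-fold on the (FPKM + 1) scale. The members' median level in the complexes lay inside the range of the C57BL/6 cumulus libraries. In the BDF1 complexes 26 of the 76 members (34.2%) were above all 8 C57BL/6 libraries, against 32.6% of the 12713 genes compared, and 7 (9.21%) were below them, against 13.2%. In the DBA/2 complexes 19 (25%) were above, against 32.3%, and 11 (14.5%) below, against 16%. These shares were near or under those of all genes and say nothing particular of the members. The complexes also differ from the cumulus libraries in age, strain and content of oocyte. Whether priming differs too is not stated in the labels, and these factors cannot be told apart here.

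Both complexes were set against the same 8 libraries, so values of single members are given side by side. Mrpl48 had 102 FPKM in BDF1 and 81.1 in DBA/2, against 37.0 to 61.1 in the 8 C57BL/6 libraries. Mrpl44 had 24.9 and 26.7 against 11.0 to 18.6, and Mrps22 had 54.5 and 39.5 against 20.7 to 36.9. Mrps6, the counterpart of a bacterial small-subunit protein, had 24.6 FPKM in BDF1 and 25.01 in DBA/2 complexes against 32.0 to 63.7. Mrps22 and Mrpl48, which were lower in mural than in cumulus cells, were highest in the complexes, as was Elac2 at 41.5 and 39.8 FPKM. The other members that fell in mural cells did not share this. Mrpl12, Mrpl15 and Mrpl16 lay inside the range of the 8 C57BL/6 libraries in both complexes. Mrpl49 lay below that range in BDF1 and inside it in DBA/2.

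Against the mean of the 2-month cumulus libraries, 4 members were at least 1.5-fold higher in BDF1 (5.26%, against 23.3% of all genes) and 8 lower (10.5%, against 9.52%). In DBA/2 2 were higher (2.63%, against 25.2%) and 14 lower (18.4%, against 14.2%). Both comparisons share the same cumulus libraries. Medians of the members were 0.10 for BDF1 and -0.07 for DBA/2 on the log2 scale, against 0.13 and 0.11 for all genes. Mrpl44 was past 1.5-fold higher in both, at 0.69 and 0.79, and Mrps6, Mrpl21, Mrpl11, Mrpl52 and Mrps36 past it lower in both. Mrpl21, a large-subunit protein of a bacterial family, had 19.3 FPKM in BDF1 and 22.7 in DBA/2 against 41.3 ± 7.21 (SD, n = 3) in 2-month cumulus cells.

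**Figure D5:**
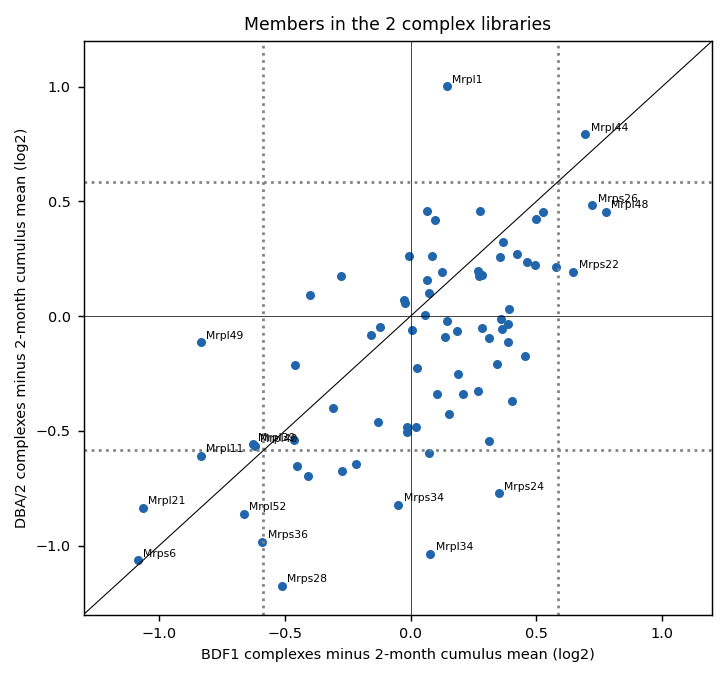
log2 ratio of each member in the BDF1 (horizontal) and DBA/2 (vertical) complexes to the mean of the 2-month cumulus libraries, with 1 point per member; dotted lines mark 1.5-fold and the diagonal marks equal ratios; the axes share the cumulus mean. Mrpl44 lies high and Mrps6 and Mrpl21 lie low on both axes, and Mrps24 (0.35 and -0.77), Mrpl34 (0.08 and -1.04) and Mrpl1 (0.14 and 1.00) lie farthest from the diagonal.

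Between the complexes, 9 members were at least 1.5-fold higher in BDF1 than in DBA/2 (11.8%, against 10.1% of all genes) and 2 lower (2.63%, against 8.35%), with a median log2 ratio of 0.22 against 0.00. Mrps24 had 49.7 FPKM in BDF1 and 22.3 in DBA/2 (log2 ratio 1.12), and Mrpl34 had 65.04 and 29.5 (1.12). For Mrpl34 the DBA/2 library lay below all 8 C57BL/6 libraries and BDF1 inside their range, while for Mrps24 DBA/2 lay below and BDF1 above it. Mrpl46 had 32.9 and 17.8 FPKM (0.85) and Mrpl41 17.6 and 9.91 (0.77). In the other direction Mrpl1 had 9.38 FPKM in BDF1 and 17.8 in DBA/2 (-0.86), the latter against a highest value of 9.75 in the C57BL/6 libraries, and Mrpl49 had 12.6 and 21.5 (-0.72). Mrpl15 (11.2 and 16.1 FPKM) and Mrpl33 (204 and 279.8) differed by less than 1.5-fold. With 1 library per strain none of these differences has a replicate check.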

How the data were processed

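The deposited values are the authors' FPKM per gene. The submitters' processing notes name TopHat2 2.1.0, Cufflinks 2.1.0 and the build mm9. The annotation, strand setting and depth are not stated in the labels or the table, so no counting interval can be had. FPKM divides by transcript length and by library total, so genes that take a large share of a library (Mir and Snor genes held 10.3% to 21.4%) lower all others.

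log2(FPKM + 1) of the 8 C57BL/6 libraries was fitted once with limma 3.58.1 (R 4.3.3), with a term for each group, a mean-variance trend and 5 residual degrees of freedom. The 12412 genes with a mean of at least 1 FPKM were tested, with Benjamini-Hochberg adjustment over all of them and a threshold of 0.05. All log2 fold changes are on the log2(FPKM + 1) scale, which understates changes of low genes. The procedure was run on simulated data in which noise was drawn separately for each gene and library. Shifts shared by many genes of a library were not simulated, so that run says nothing about them. Tables and figures used Python 3.11.15, pandas 2.3.3, numpy 2.4.6 and matplotlib 3.10.9.

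The members, gene lists and tests were chosen with earlier results of these data known. Named members were, per comparison, the 6 with the smallest p, the 5 highest and 5 lowest in mean FPKM, 10 with known roles, the 4 of widest and 4 of narrowest range, and up to 4 per direction between the complexes; lists gave up to 4 genes per comparison. Other genes named (such as Sars2, Mrps11, Gabpa, Yy1 and Tufm), and members named as falling in a count, were chosen after their values were seen. Alternatives covered the pseudocount, the filter, scaling, library weights, a replicate block and leaving out libraries.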

Additional observations from a re-analysis of the deposited data

How the results depend on the processing

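With 2 or 3 libraries a group, counts of genes past the threshold moved more than medians. For age, the count over all genes was 69 with library weights, 7 with both cumulus replicates 3 left out (an alternative chosen after seeing the data) and 0 to 245 on leaving out 1 library, the highest without 10-month replicate 2. For mural against cumulus cells it was 2599, and 5425 with library weights and 99 to 3253 on leaving out 1 library, the lowest without mural replicate 2 and the highest without 10-month replicate 3. Members past the test numbered 6, and 2 with quantile normalisation, 3 after rescaling without Mir and Snor genes, 0 with median centring, 14 in a fit of the 2 groups alone, 43 with library weights, 24 with both cumulus replicates 3 left out, and 0 to 14 on leaving out 1 library. Where an arm kept 1 library, it was assumed to vary like the other groups. A replicate block gave 33 members and 3361 genes in mural cells, but the labels do not say whether libraries of the same number belong together. Deviations of same-numbered libraries correlated at 0.00604 to 0.147 for age, against -0.138 to 0.0395 for libraries of different number. For mural cells they correlated at 0.0322 and 0.214. With 2 mural libraries the deviations mirror each other, so these values cannot decide the question. The members' median ranged from -0.29 to -0.03 for age and from -0.52 to -0.28 for mural cells on leaving out 1 library. In the complexes, a 2-fold rule left 2 members for BDF1 against DBA/2, 2 for BDF1 and 4 for DBA/2 against cumulus cells, where 1.5-fold gave 11, 12 and 16; median centring gave 26 for DBA/2. Among named genes, 960 values kept their status, called or not called, so these include genes that passed in neither setting. A call was gained in 29 values and lost in 88. Lrpprc in mural cells changed sign, from -0.17 to 0.031, after the rescaling. The cause was not tested for any of these.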
